A study of Mus musculus with 21 samples.

Results

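Neurexins, neuroligins and cerebellins are synapse organisers, and 8 of their genes were followed here through the differentiation of mouse embryonic stem cells into motor neurons (MNs). The genes were taken by name from the 55400 genes of the RNA-seq count table: the neurexins Nrxn2 and Nrxn3, the neuroligins Nlgn1, Nlgn2 and Nlgn3, and the cerebellins Cbln1, Cbln2 and Cbln4. The 21 libraries formed 7 groups of 3 biological replicates, all from wild-type C57BL/6 embryonic stem cells that had been grown on mouse embryonic fibroblasts and then cultured as embryoid bodies. All cultures were patterned with 1 μM retinoic acid and 0.5 μM SAG, an agonist of sonic hedgehog signalling, and 5 μM DAPT, a Notch pathway inhibitor, was part of the protocol from day 4. Untreated cells were collected at day 4 (D4, MN progenitors), 8 h later (D4H8, proneural MNs), at day 5 (D5, newborn MNs) and at day 6 (D6, mature MNs). The other 3 groups, D4H8+GSKJ4, D5+GSKJ4 and D6+GSKJ4, had received GSKJ4, an inhibitor of the H3K27 demethylase Kdm6b, for 1 day before collection. Its dose and the vehicle given to the untreated cells are not given in the sources used here. GSKJ4 can act on enzymes other than Kdm6b, so a difference below is one between treated and untreated cultures.

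Neurexins are presynaptic membrane proteins, and each neurexin gene gives long and short forms from separate promoters. Neuroligins are postsynaptic membrane proteins that bind neurexins across the cleft. Nlgn1 is known best from excitatory synapses, Nlgn2 from inhibitory synapses, and Nlgn3 from both kinds. Cerebellins are secreted proteins of the C1q family. They bridge presynaptic neurexins to postsynaptic receptors, and Cbln1 is best known from the cerebellum. Counts per gene cannot separate the long and short neurexin forms or their splice variants.

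RefSeq promoter sequences (GRCm38.p6) matched 4 of the 8 genes with 7 start sites: Cbln4, Nlgn1, Nlgn2 and Nrxn3. The 250 bases before a start are printed for 3 of these, chosen because they precede the neuroligin with the highest level, the neuroligin that changed most from D4 to D6 and a cerebellin that rose early. They were read 5′ to 3′ on the gene's strand, and capitals mark ATTGG, the reverse complement of the CCAAT box.
Nlgn2, chr11:69837785-69838034, minus strand: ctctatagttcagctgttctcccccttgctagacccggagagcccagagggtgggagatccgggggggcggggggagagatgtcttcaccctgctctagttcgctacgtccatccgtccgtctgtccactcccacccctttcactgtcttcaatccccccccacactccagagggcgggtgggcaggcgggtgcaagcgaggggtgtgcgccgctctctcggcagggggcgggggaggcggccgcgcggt
Nlgn1, chr3:26153987-26154236, minus strand: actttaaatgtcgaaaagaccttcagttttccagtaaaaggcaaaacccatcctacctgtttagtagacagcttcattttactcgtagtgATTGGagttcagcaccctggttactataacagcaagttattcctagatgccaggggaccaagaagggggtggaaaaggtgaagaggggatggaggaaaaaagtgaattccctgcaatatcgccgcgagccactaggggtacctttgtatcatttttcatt
Cbln4, chr2:172043467-172043716, minus strand: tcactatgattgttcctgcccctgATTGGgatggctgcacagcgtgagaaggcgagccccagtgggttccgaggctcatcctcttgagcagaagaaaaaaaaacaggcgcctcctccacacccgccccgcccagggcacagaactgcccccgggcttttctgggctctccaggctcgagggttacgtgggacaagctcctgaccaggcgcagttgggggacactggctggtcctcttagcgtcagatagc

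None of the 3 printed stretches overlaps an annotated exon, and the Nlgn1 stretch lies inside the gene, before an internal start. The Nlgn2 stretch had a GC content of 67.6% and held 18 CpG dinucleotides, more than 78.3% of 32851 RefSeq promoters, whose median was 6. The Cbln4 stretch had a GC content of 60.8% and 11 CpG dinucleotides, and the Nlgn1 stretch 43.6% and 5. A set of 4 motifs was searched on both strands. Among the 7 member stretches CCAAT was found in the Cbln4 and in this Nlgn1 stretch alone, and in 33.9% of all promoters. The proneural core CAGATG (14.4% of all promoters), the Onecut core ATTGAT (6.72%) and the homeodomain core TAATTA (4.84%) were found in none of the 7. The other Nlgn1 stretch (chr3:26331910-26332159, GC content 53.6%, 9 CpG dinucleotides), which is not printed, held none of the 4 motifs. A match here is a description of letters, not of a bound site.

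Total counts ran from 14982115 to 34383842 per library (median 16238435). Of these libraries, D5+GSKJ4 replicate 2 stood apart at low counts. It listed 39381 genes at 0 and 840 genes with 1 to 10 counts, against 29339 to 32805 and 6721 to 8776 genes in the other 20 libraries. Nlgn1 and Nlgn3 were at 0 in it, and the values of these genes at D5+GSKJ4 are given with and without it. The 9 motor neuron markers had a summed level of 12.7 to 27.5 FPKM at D4 and 646 to 709 FPKM at D6. FPKM scales the fragments of a gene by its exonic length and by the library total, and is the level compared between genes below. The 9 pan-neuronal markers had 36.6 to 73.2 FPKM at D4 and 1934 to 2254 at D6. In such bulk samples, fewer cells of a type and less RNA per cell cannot be told apart.

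All 8 genes were higher at D6 than at D4, in libraries that did not overlap. This was tested with edgeR's quasi-likelihood test over the 17519 genes of the 12 untreated libraries, at an adjusted p under 0.05, and 32.9% of all tested genes were higher by the same rule (35.7% by libraries that did not overlap). The median log2 change over all tested genes was -0.04. Nlgn1, Nlgn3, Cbln2 and Cbln4 passed the filter on low counts through D5 and D6 alone, and Nrxn3 and Cbln1 through D4H8, D5 and D6, so these members could enter the test only because they were higher later. The count of 8 held in each of the 12 fits that left out 1 library. The genes differed in when they rose, which the next paragraphs give by family.

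**Figure D1:**
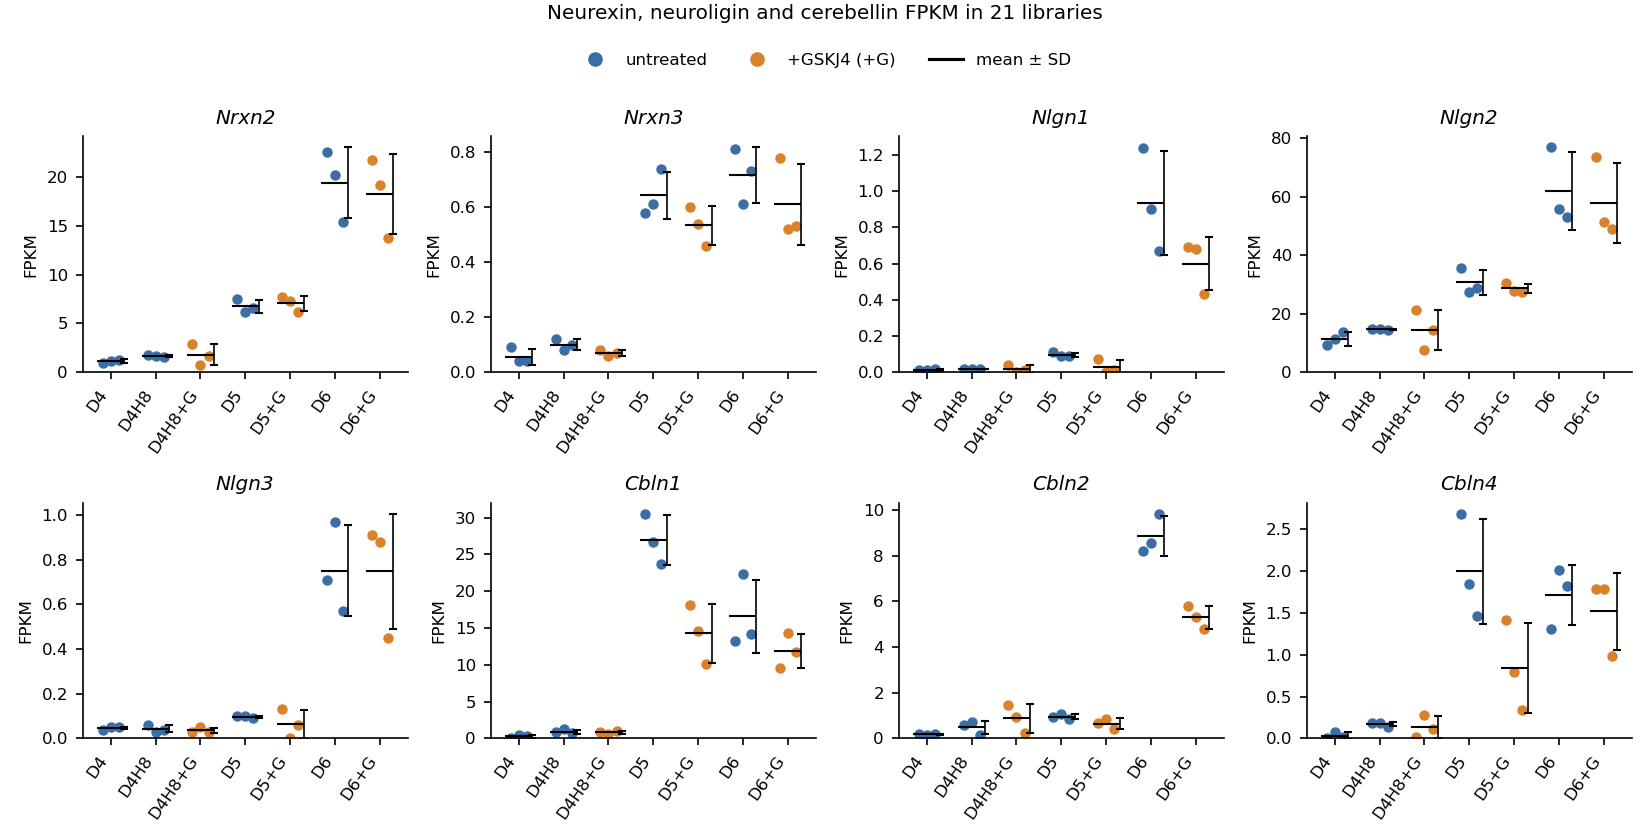
FPKM (y axis, linear from 0, one scale per gene) of the 8 genes in each of the 21 libraries, by group (x axis, +G for GSKJ4). Points are libraries in the order of replicate number, horizontal bars are means and vertical bars SDs of 3 libraries. Cbln1 and Cbln4 are already high at D5, while Nlgn1, Nlgn3 and Cbln2 have at most 0.11, 0.13 and 1.46 FPKM before D6 and 0.43, 0.45 and 4.79 or more from D6 on.

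Nrxn2 (chr19:6418731-6544169, plus strand, GRCm38) had a higher level than Nrxn3 in every library. Its FPKM was 0.94, 1.15 and 1.29 at D4, 1.76, 1.65 and 1.59 at D4H8, 7.50, 6.18 and 6.55 at D5, and 22.59, 20.23 and 15.43 at D6. The 4 untreated stages therefore did not overlap. Nrxn2 rose by a log2 fold change of 2.02 ± 0.16 (SE) from D4H8 to D5 (adjusted p = 9.83e-07) and by 1.64 ± 0.16 from D5 to D6 (adjusted p = 6.46e-06). The change over the first 8 h was 0.53 ± 0.16 and did not pass the threshold (adjusted p = 0.0991), but did with no filter on low counts (adjusted p = 0.0238), without D6 replicate 1 (adjusted p = 0.0493) and without D6 replicate 3 (adjusted p = 0.0498). Nrxn2 shares 207 exonic bases with the antisense gene Gm14964 (7 to 165 counts) and 682 with Slc22a12 on the opposite strand (0 to 7 counts). Without a stated counting strand their reads cannot be told apart. From D4 to D6 the change came to 4.19 ± 0.18 (adjusted p = 3.73e-10).

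Nrxn3 (chr12:88722876-90334935, plus strand) stayed under 1 FPKM throughout. It measured 0.09, 0.04 and 0.04 FPKM at D4, 0.12, 0.08 and 0.10 at D4H8, 0.58, 0.61 and 0.74 at D5 and 0.81, 0.61 and 0.73 at D6. Its rise was placed between D4H8 and D5, with a log2 fold change of 2.63 ± 0.34 (adjusted p = 5.86e-05). D5 and D6 overlapped, with a log2 difference of 0.29 ± 0.30 (adjusted p = 0.497).

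Nlgn2 (chr11:69823122-69837784, minus strand) had the highest FPKM of the 8 genes in each of the 21 libraries. Its level was 9.19, 11.21 and 13.86 FPKM at D4, 14.63, 14.88 and 14.49 at D4H8, 35.54, 27.52 and 28.87 at D5 and 77.10, 55.61 and 52.97 at D6. It was thus well above the other neuroligins before the neuronal stages. Nlgn2 rose in 2 steps of like size, by 1.07 ± 0.17 (log2, SE) from D4H8 to D5 (adjusted p = 0.00043) and by 1.13 ± 0.17 from D5 to D6 (adjusted p = 0.000262). Of the summed FPKM of the 3 neuroligins it made up 99.5% ± 0.02 (SD, n = 3) at D4 and 97.3% ± 0.51 at D6. Within single libraries the ratio of Nlgn2 to Nrxn2 FPKM ran from 9.75 to 10.7 at D4, from 4.41 to 4.74 at D5 and from 2.75 to 3.43 at D6.

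Nlgn1 (chr3:25426215-26332460, minus strand) and Nlgn3 (chrX:101299168-101325963, plus strand) had their higher levels at D6. Nlgn1 measured 0.01, 0.01 and 0.02 FPKM at D4, 0.02 in all 3 D4H8 libraries, 0.11, 0.09 and 0.09 at D5, and 1.24, 0.90 and 0.67 at D6. Nlgn1 rose by 2.27 ± 0.39 (log2) from D4H8 to D5 (adjusted p = 0.00066) and by 3.47 ± 0.31 from D5 to D6 (adjusted p = 4.17e-06). At D4 the 3 libraries held 12 Nlgn1 counts together, against 607 at D6, a depth-scaled ratio of 59.2 (exact 95% interval 33.6 to 115, counting error only). Nlgn1 shares 1229 exonic bases with the antisense gene A830092H15Rik (0 to 5 counts), and without a stated counting strand their reads cannot be told apart.
Nlgn3 measured 0.04, 0.05 and 0.05 FPKM at D4, 0.06, 0.03 and 0.04 at D4H8, 0.10, 0.10 and 0.09 at D5, and 0.71, 0.97 and 0.57 at D6. Its levels at D4 and D4H8 overlapped and its D6 libraries lay above all others. From D5 to D6 it rose by 3.06 ± 0.32 (log2, adjusted p = 1.48e-05). The smaller step to D5, 1.12 ± 0.37 (adjusted p = 0.0344), was lost without D4 replicate 3, without D4H8 replicate 2 or 3, or without any 1 of the D5 replicates (log2 fold change 0.98 to 1.14, adjusted p = 0.051 to 0.113). It was also lost by DESeq2 (adjusted p = 0.0749), by edgeR with no filter on low counts (adjusted p = 0.129) and in 1 edgeR fit over all 21 libraries (adjusted p = 0.291). Of the 9271 exonic bases of Nlgn3, 3823 are shared with Gm21986 on the same strand, a transcript with 0 to 31 counts, so the Nlgn3 level is uncertain. At D6 the Nlgn1 and Nlgn3 libraries overlapped, and neither could be placed above the other.

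Cbln1 (chr8:87468405-87472609, minus strand) reached the highest level of the cerebellins. It measured 0.09, 0.44 and 0.28 FPKM at D4, 0.85, 1.22 and 0.70 at D4H8, 30.49, 26.74 and 23.70 at D5, and 13.25, 22.28 and 14.18 at D6. Among the 8 genes it was the one called over the first 8 h, with a log2 fold change of 1.78 ± 0.39 (adjusted p = 0.0184), where 4.06% of all tested genes were called higher. That call was lost without D4 replicate 1 (1.36, adjusted p = 0.0802), without D4H8 replicate 1 (1.82, adjusted p = 0.063) or without D4H8 replicate 2 (1.57, adjusted p = 0.0671). From D4H8 to D5, Cbln1 rose by 4.87 ± 0.32 (adjusted p = 2.08e-07), the largest log2 estimate among the 8 genes over the 3 untreated steps.
At D6 the 3 Cbln1 values lay below the 3 at D5, but the groups overlapped once counts were scaled by TMM, and the log2 difference of -0.60 ± 0.26 did not pass (adjusted p = 0.0929). With the replicate number as a block the difference was -0.64 ± 0.21 and passed (adjusted p = 0.0315), as did 38% of all tested genes. It also passed without D4 replicate 1 (-0.64, adjusted p = 0.033) and without D6 replicate 2 (-0.85, adjusted p = 0.0402). Cbln1 lies within the annotated span of the lincRNA Gm2694 on the other strand (6 to 334 counts), with no shared exonic base.

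Cbln4 (chr2:172036233-172043466, minus strand) had the same order of calls from D4H8 on, at a lower level. It measured 0, 0.08 and 0.02 FPKM at D4, 0.18, 0.19 and 0.14 at D4H8, 2.68, 1.84 and 1.46 at D5, and 1.31, 2.01 and 1.82 at D6. The D4, D4H8 and later values did not overlap, while D5 and D6 did. Cbln4 rose by 3.53 ± 0.45 (log2) from D4H8 to D5 (adjusted p = 5.32e-05), and the D6 to D5 difference was -0.12 ± 0.38 (adjusted p = 0.838). The earlier step of 2.33 ± 0.67 did not pass (adjusted p = 0.0728) but did without D4 replicate 2 (3.88, adjusted p = 0.0215) and by DESeq2 (adjusted p = 0.0265). Since D4 held 5 Cbln4 counts in all, the depth-scaled ratio of D6 to D4 was 55.7 with an exact 95% interval of 23.5 to 173 (counting error only).

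Cbln2 (chr18:86711110-86718283, plus strand) passed the threshold in the last step alone. It measured 0.20, 0.14 and 0.19 FPKM at D4, 0.58, 0.72 and 0.16 at D4H8, 0.96, 1.06 and 0.85 at D5, and 8.21, 8.53 and 9.83 at D6. D4H8 replicate 3 lay within the range of D4, and the 3 D6 libraries stood far above the rest. From D5 to D6 the log2 fold change was 3.31 ± 0.34 (adjusted p = 1.17e-05). The step from D4H8 to D5 was 0.93 ± 0.35 and did not pass (adjusted p = 0.0659), although it did without D4H8 replicate 2 (1.22, adjusted p = 0.0412) and by DESeq2 (adjusted p = 0.0292). The D4H8 against D4 difference, 1.42 ± 0.42 (adjusted p = 0.0793), passed without D4H8 replicate 3 (1.80, adjusted p = 0.00151), by DESeq2 (1.46, adjusted p = 0.00924) and with no filter on low counts (1.44, adjusted p = 0.00366).

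The shares of the 3 cerebellins in their summed FPKM differed between these stages. Cbln3 is not part of the sum and had means of 0.14 FPKM at D5 and 0.153 at D6. At D5, Cbln1 held 90.2% ± 0.89 (SD, n = 3) and Cbln2 3.22% ± 0.38. At D6 the shares were 60.3% ± 6.75 for Cbln1 and 33.4% ± 6.47 for Cbln2. Cbln4 kept 6.56% ± 1.16 and 6.31% ± 0.67. In single libraries Cbln1 exceeded Cbln2 by 25.2 to 31.8 times at D5 and by 1.44 to 2.61 times at D6, so the ratios did not overlap.

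**Figure D2:**
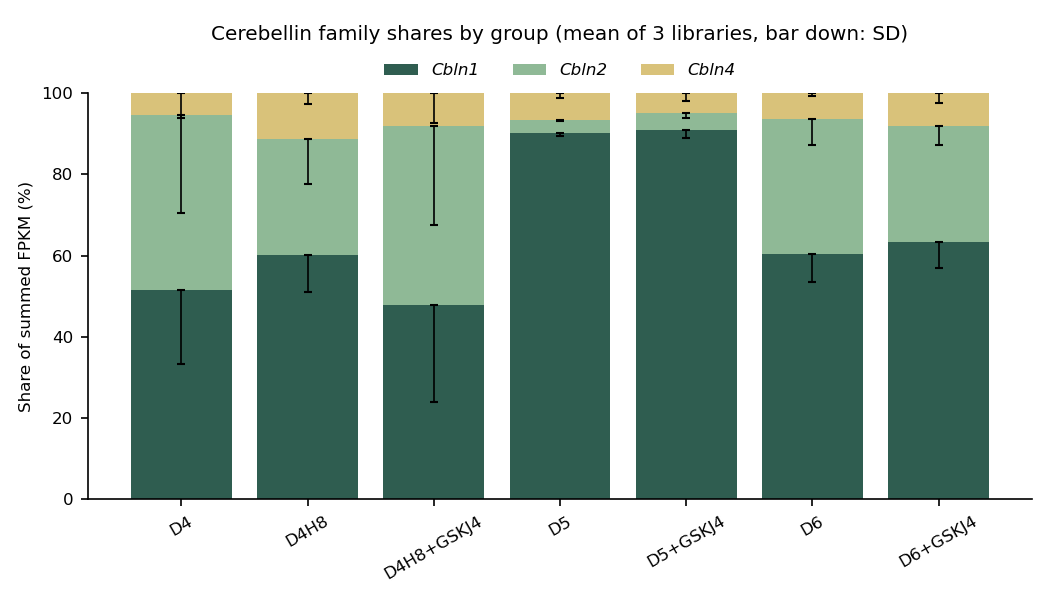
Stacked bars give the mean share (y axis, percent) of Cbln1, Cbln2 and Cbln4 in their summed FPKM in each of the 7 groups (x axis), with 1 SD of 3 libraries drawn downwards from the top of each segment. The Cbln2 segment grows from 3.22% at D5 to 33.4% at D6, and the D4, D4H8 and D4H8+GSKJ4 shares rest on low levels and have wide SDs.

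Counted by step, 1 of the 8 genes was higher at D4H8 than at D4 (4.06% of all tested genes were higher), 7 at D5 than at D4H8 (17.2%) and 5 at D6 than at D5 (19.2%). The 7 genes include Nlgn3, whose call held in 6 of the 12 fits without 1 library. The 5 genes of the last step were Nrxn2, Nlgn1, Nlgn2, Nlgn3 and Cbln2. In this untreated fit Nlgn1, Nlgn3, Cbln2 and Cbln4 passed the filter on low counts through D5 and D6 alone, and Nrxn3 and Cbln1 through D4H8, D5 and D6. Those members could enter the test only because they were higher later, which limits the comparison of these counts with the shares over all genes. In the GSKJ4-treated series, fitted over 9 libraries, 4 of 8 were higher at D5+GSKJ4 than at D4H8+GSKJ4 (9.59% of all tested genes) and 5 at D6+GSKJ4 than at D5+GSKJ4 (7.24%). Here Nlgn1 and Nlgn3 passed the filter on low counts through D6+GSKJ4 alone, and Cbln4 through D5+GSKJ4 and D6+GSKJ4. The comparison of these treated counts with the shares over all genes is limited in the same way.
The first treated step raised Nrxn2 by 1.99 ± 0.37, Nrxn3 by 2.87 ± 0.40, Nlgn2 by 1.00 ± 0.31 and Cbln1 by 4.14 ± 0.31 on the log2 scale. The Nlgn2 call (adjusted p = 0.0496) was lost in 7 of the 9 fits without 1 library, D5+GSKJ4 replicate 2 included (1.05, adjusted p = 0.0786); D4H8+GSKJ4 replicate 1 and D6+GSKJ4 replicate 1 were the libraries whose removal kept it. Cbln4, at 2.56 ± 0.85, missed the threshold (adjusted p = 0.0649) and passed without D4H8+GSKJ4 replicate 2 (3.76, adjusted p = 0.0332). The second treated step raised Nrxn2 (adjusted p = 0.0225), and on the log2 scale Nlgn1 by 4.41 ± 1.09, Nlgn2 by 1.14 ± 0.31, Nlgn3 by 3.59 ± 0.93 and Cbln2 by 3.14 ± 0.59. Without D5+GSKJ4 replicate 2 the count fell to 3, with Nrxn2 (adjusted p = 0.067) and Nlgn2 (adjusted p = 0.0984) lost, and the changes of Nlgn1 and Nlgn3, still called, were 3.84 and 3.02. Over the fits without 1 library these ran from 3.84 to 6.47 for Nlgn1 and from 3.02 to 4.75 for Nlgn3. Without D5+GSKJ4 replicate 1, Nlgn2 was lost (adjusted p = 0.0543). Without D5+GSKJ4 replicate 3, or D6+GSKJ4 replicate 1 or 2, Cbln2 alone stayed past the threshold.

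**Figure D3:**
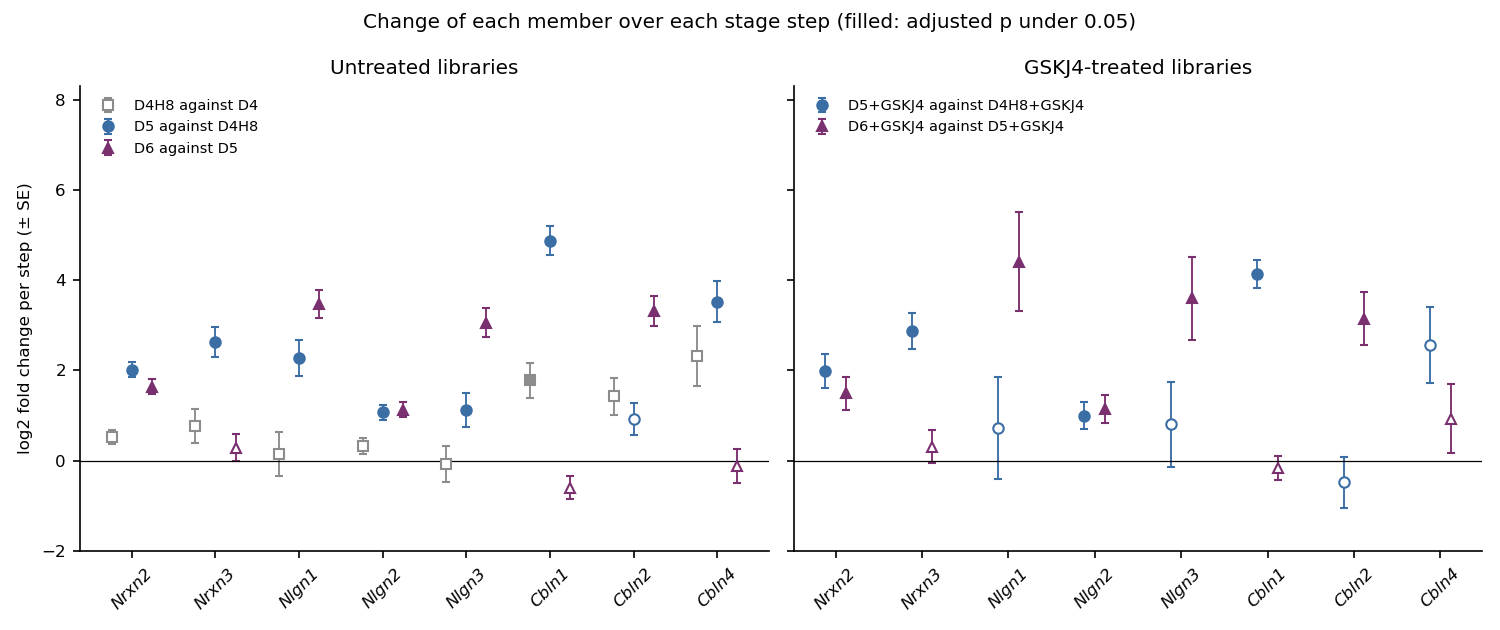
Log2 fold change with its SE (y axis) of each gene (x axis) over each stage step, in untreated libraries (left) and GSKJ4-treated libraries (right); filled symbols have an adjusted p under 0.05. Cbln1 has its largest step at D5 (4.87 untreated, 4.14 treated), and Nlgn1, Nlgn3 and Cbln2 have theirs at D6 in both series.

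Genes of the same pathway, in 4 lists, rose from D4 to D6 as well. Of 17 other neurexin relatives and extracellular neurexin partners, 16 were tested, 15 were higher and 1 was lower, with a median log2 change of 4.27 against -0.04 over all tested genes. The 1 lower gene was Dag1, the dystroglycan gene, at 40.04 to 57.88 FPKM at D4 and 17.85 to 26.73 at D6 (log2 fold change -0.97 ± 0.16, adjusted p = 0.000114). Lrrtm2 and Lrrtm4, postsynaptic ligands of neurexins, were among the higher genes. Lrrtm2 went from 0 to 0.12 FPKM at D4 to 3.78 to 4.90 at D6, and Lrrtm4 from at most 0.02 to 0.95 to 1.29.
Among 7 cerebellin relatives and receptors, 6 were tested and 5 were higher (median 4.62), with Cbln3 not past the threshold (0.22, adjusted p = 0.756). C1ql1, a secreted C1q protein, had 2.78 to 2.94 FPKM at D4 and 41.66 to 94.77 at D6. C1ql3 had 0.05 to 0.19 and 8.42 to 10.39.

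Of 16 neuroligin regulators and postsynaptic scaffold genes, all were tested, 14 were higher at D6 and none lower (median 2.62), with Dlg3 (0.04) and Homer1 (0.07) not past the threshold. The largest changes were those of the scaffold genes Dlgap2 (5.56 ± 0.44) and Dlgap1 (5.05 ± 0.34) and of Mdga2 (5.11 ± 0.44), whose product binds neuroligins and blocks neurexin. Of 9 neurexin intracellular partners and splicing factors, 7 were higher (median 2.51), led by the adaptor Apba1 (7.93 ± 0.29), the splicing factor Khdrbs2 (4.22 ± 0.42) and Lin7b (3.45 ± 0.39). Lin7c and Khdrbs1 were not past the threshold (adjusted p = 0.105 for both).

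At D4H8, none of the 5 members that could be tested passed edgeR's quasi-likelihood test for GSKJ4, where 3.96% of all tested genes were called. None of the 5 had an unadjusted p under 0.05, and DESeq2 called 0. Nlgn1, Nlgn3 and Cbln4 fell under the filter on low counts, at most 0.28 FPKM in any D4H8 or D4H8+GSKJ4 library. Nrxn3 measured 0.08, 0.06 and 0.07 FPKM against 0.12, 0.08 and 0.10. After TMM scaling it was the 1 member whose treated libraries all lay below the untreated ones, as did 16.8% of all tested genes (log2 difference -0.54 ± 0.42, adjusted p = 0.447).
The treated replicates spread widely at this stage. Nrxn2 measured 2.93, 0.78 and 1.64 FPKM and Nlgn2 21.21, 7.57 and 14.38, so replicate 1 was highest and replicate 2 lowest in both genes. Their within-library ratio stayed between 7.24 and 9.71, against 8.31 to 9.11 in untreated D4H8. Cbln2 measured 1.46, 0.95 and 0.22 FPKM against 0.58, 0.72 and 0.16, a log2 difference of 0.79 ± 0.70 (adjusted p = 0.504). All its treated libraries were over the filter's cutoff, while untreated D4H8 replicate 3 was under it. Some cell type markers differed at this stage: summed FPKM ran from 18.8 to 44.2 against 68.4 to 74.1 for the motor neuron list and from 59.0 to 120 against 231 to 319 for the 7 neural progenitor genes. Of 8 tested motor neuron genes 3 were called lower, and of the 7 progenitor genes 3. The sums of the 9 pan-neuronal markers overlapped (80.2 to 230 against 197 to 381 FPKM), and none of these was called. The part of the markers in the values of the members was not tested. Of the 38 tested genes of the 4 pathway lists, Dag1 was higher (0.91 ± 0.20, adjusted p = 0.0397) and the adaptor gene Apba2 lower (-1.65 ± 0.30, adjusted p = 0.0246) under GSKJ4. No other gene of these lists was called, beside 3.96% of all tested genes called in either direction.

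At D5 the cerebellins had lower values under GSKJ4, but none of the 8 genes passed the test. Cbln1 measured 18.06, 14.57 and 10.15 FPKM in D5+GSKJ4 against 30.49, 26.74 and 23.70 in D5, and every treated library lay below every untreated one. Its log2 difference was -0.96 ± 0.23, with an unadjusted p of 0.00226 by edgeR's quasi-likelihood test and an adjusted p of 0.629. It was the 1 member lower at an unadjusted p under 0.05, where 2.39% of all tested genes were. In this comparison 0.00613% of all tested genes, which is 1 gene, were called. DESeq2 called Cbln1 lower (-0.96, adjusted p = 0.0261), the 1 member it called, and so did edgeR with no filter on low counts (-0.97, adjusted p = 0.000312). Without D5+GSKJ4 replicate 2 the difference was -0.95 (adjusted p = 0.967).
Cbln4 measured 1.41, 0.79 and 0.34 FPKM against 2.68, 1.84 and 1.46, a log2 difference of -1.26 ± 0.57 (adjusted p = 0.976). Cbln2 measured 0.68, 0.86 and 0.41 against 0.96, 1.06 and 0.85, which separated after TMM scaling but not in FPKM (-0.61 ± 0.56, adjusted p = 0.976). Without D5+GSKJ4 replicate 2 the differences were -1.18 for Cbln4 and -0.83 for Cbln2. Nlgn1 measured 0.07, 0 and 0.01 against 0.11, 0.09 and 0.09, with a log2 difference of -1.67 ± 1.20 (adjusted p = 0.976) that became -1.09 without D5+GSKJ4 replicate 2. These 4 of 8 genes lay lower without overlap after TMM scaling, as did 6.38% of all tested genes, and Nlgn1 and Nlgn3 passed the filter through untreated D5 alone.

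The other 4 genes overlapped at D5. Nrxn2 measured 7.67, 7.28 and 6.20 FPKM in treated cells (log2 difference 0.02 ± 0.16) and Nlgn2 30.54, 27.90 and 27.55 (-0.14 ± 0.16). Nrxn3 measured 0.60, 0.54 and 0.46 (-0.30 ± 0.29). Nlgn3 measured 0.13, 0 and 0.06, and its difference of -0.59 ± 1.18 has an error too wide to place it. Without D5+GSKJ4 replicate 2 the Nlgn3 difference was -0.02, and over the fits without 1 library it ran from -1.72 to -0.02. The motor neuron markers ran from 192 to 225 summed FPKM in D5+GSKJ4 and from 285 to 339 in D5, and the 9 pan-neuronal markers from 1070 to 1482 and from 1333 to 1486. Their part in the cerebellin values was not tested. None of the 42 tested genes of the 4 pathway lists was called at D5 by edgeR's quasi-likelihood test (3 at an unadjusted p under 0.05) or by DESeq2.

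At D6 no member passed the test as designed, while 3 passed with the replicate number as a block. None of the 16301 tested genes was called without the block (0%). The samples with the same number deviated together at this stage (correlations 0.83, 0.509 and 0.657), and with the replicate number as a block 257 genes were called (1.58%). The labels state no pairing, and these correlations come from the same libraries as the test, so they are no separate support for the block. A block also leaves less information to estimate the spread. Cbln2 measured 5.79, 5.31 and 4.79 FPKM in D6+GSKJ4 against 8.21, 8.53 and 9.83 in D6, and the groups did not overlap, which held for 2.56% of all tested genes in this direction. Its log2 difference was -0.74 ± 0.14, with an unadjusted p of 0.00108 by edgeR's quasi-likelihood test and an adjusted p of 1, and -0.75 ± 0.11 with the block (adjusted p = 0.000401). It was the 1 member lower at an unadjusted p under 0.05 without the block, where 0.822% of all tested genes were. DESeq2 called 0 of the 8 genes.
Cbln1 measured 9.63, 14.26 and 11.75 FPKM against 13.25, 22.28 and 14.18. The groups overlapped, but each treated library was below the untreated one of its number, at 0.727, 0.640 and 0.829 of its FPKM. The log2 difference was -0.49 ± 0.22 (adjusted p = 1), and with the block -0.47 ± 0.08 (adjusted p = 0.00131). Nlgn1 measured 0.69, 0.68 and 0.43 against 1.24, 0.90 and 0.67, or 0.556, 0.756 and 0.642 of the untreated level by number. Its difference was -0.66 ± 0.31 (adjusted p = 1), and -0.65 ± 0.14 with the block (adjusted p = 0.0172). In 2 of the 3 genes called with the block the groups overlapped.

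**Figure D4:**
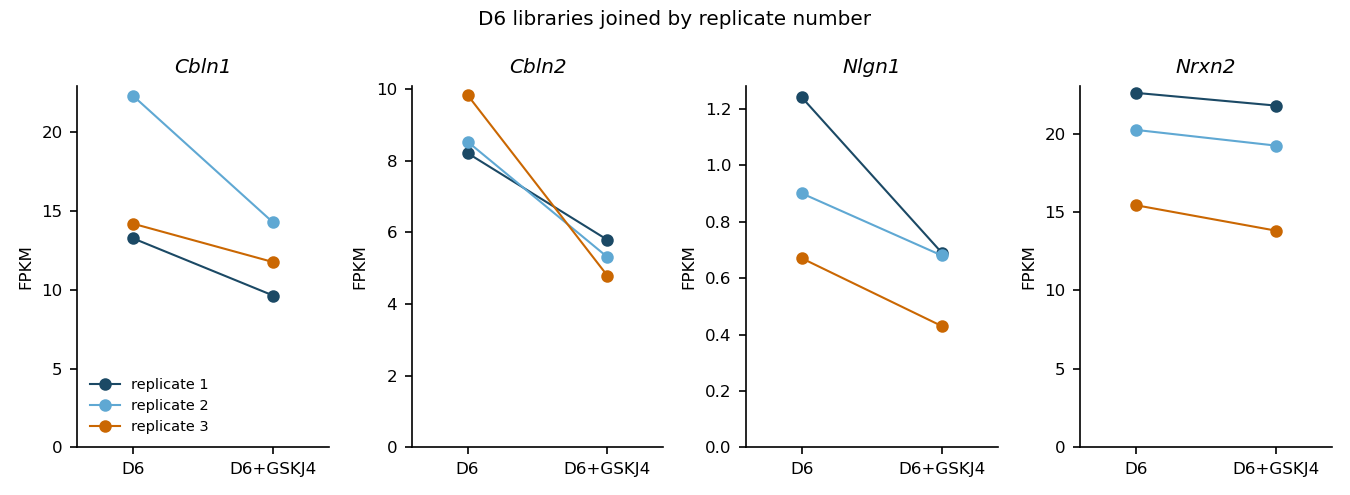
FPKM (y axis, from 0) in D6 and D6+GSKJ4 (x axis), with libraries of the same replicate number joined by a line, for the 3 genes called with the replicate block and for Nrxn2. All 3 lines fall for each gene, by a factor of 0.487 to 0.705 for Cbln2 and of 0.895 to 0.964 for Nrxn2.

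The remaining 5 genes were not called at D6 with or without the block. Nrxn2 measured 21.78, 19.23 and 13.81 FPKM under GSKJ4 (log2 difference -0.09 ± 0.23), Nlgn2 73.58, 51.30 and 48.79 (-0.10 ± 0.24), and Nrxn3 0.78, 0.52 and 0.53 (-0.25 ± 0.25). Nlgn3 measured 0.91, 0.88 and 0.45 (-0.01 ± 0.34). Cbln4, lower at D5, measured 1.78, 1.78 and 0.99 FPKM at D6 against 1.31, 2.01 and 1.82 (-0.17 ± 0.31). The summed motor neuron markers overlapped at D6, from 593 to 707 FPKM in treated and from 646 to 709 in untreated cells. The 10 spinal interneuron markers did not, by a narrow gap, at 6.14 to 9.89 FPKM against 9.91 to 12.72. Of these markers 6 could be tested at D6 without the block, and none was called. Their part in the Cbln1, Cbln2 and Nlgn1 values was not tested.

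Of the 47 tested genes of the 4 pathway lists, none was called at D6 by edgeR's quasi-likelihood test without the block (2 at an unadjusted p under 0.05) or by DESeq2. With the replicate block, 8 were lower and 1 was higher under GSKJ4, beside 1.58% of all tested genes called in either direction. Of the neurexin relatives and extracellular partners, 6 of 16 were lower, with a median log2 difference of -0.25 against 0.00 over all tested genes. Car10, which encodes a secreted neurexin ligand, had 0.883 ± 0.23 FPKM (SD, n = 3) in treated and 1.63 ± 0.27 in untreated cells (log2 difference -0.90 ± 0.16, adjusted p = 0.00346 with edgeR's block). Nxph1, a neurexophilin that binds neurexins, differed by -0.88 ± 0.16 and Lrrtm3 by -0.52 ± 0.11. The others were Nxph4, Clstn2 and Igsf21, named after their values were seen. Of the 16 neuroligin regulators and scaffold genes (median -0.10), Magi2 (-0.46 ± 0.09) and Gphn (-0.26 ± 0.06), the gephyrin gene of inhibitory synapses, were lower. Of the 6 cerebellin relatives (median -0.12), C1ql1 was higher (0.34 ± 0.06), and none of the 9 intracellular partners and splicing factors was called (median -0.03, 2 at an unadjusted p under 0.05).

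**Figure D5:**
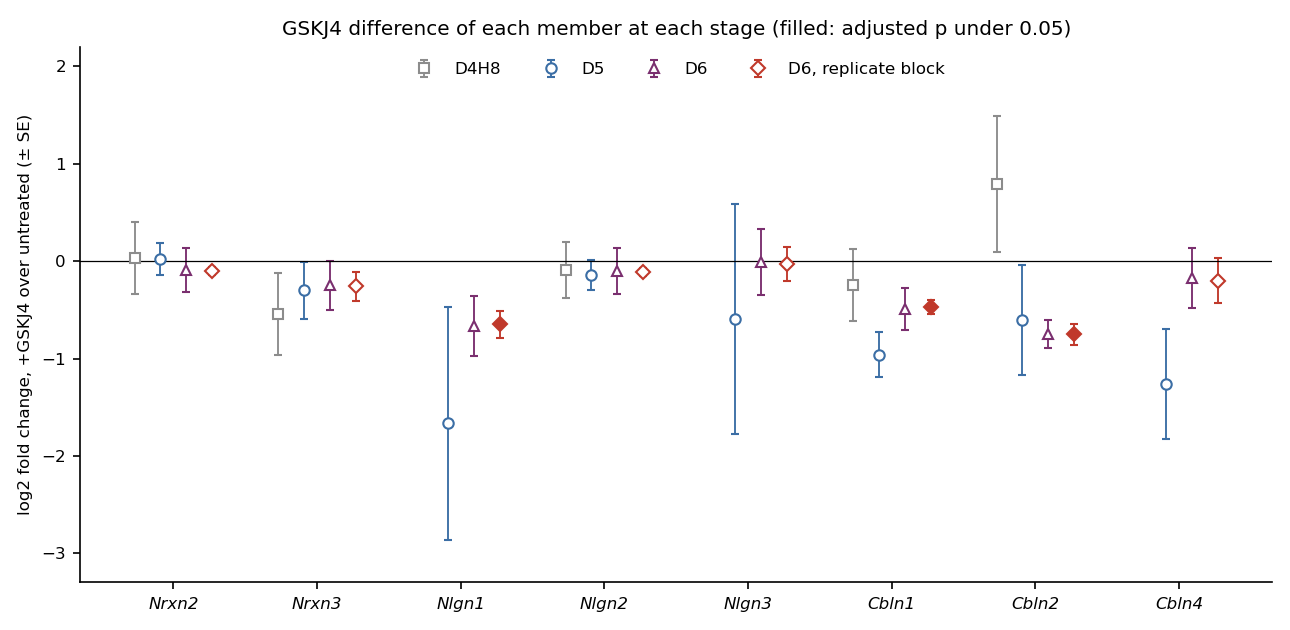
Log2 fold change of GSKJ4-treated over untreated cells with its SE (y axis) for each gene (x axis) at D4H8, D5 and D6, and at D6 with the replicate block; filled symbols have an adjusted p under 0.05. Cbln1, Cbln2 and Nlgn1 are filled in the blocked D6 fit alone (-0.47, -0.75 and -0.65), and 3 genes have no value at D4H8.

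Whether the GSKJ4 difference itself varied with stage was tested over 18 libraries. None of the 8 genes passed for D5 against D4H8, D6 against D5 or D6 against D4H8, where 0.249%, 0% and 0.735% of all tested genes did. Nor did DESeq2 call any of them. The 1 member with an unadjusted p under 0.05 was Cbln2 between D6 and D4H8, by -1.52 ± 0.69 (edgeR quasi-likelihood unadjusted p = 0.0408, adjusted p = 0.338), since its values were higher with GSKJ4 at D4H8 and lower at D6. For Cbln1, whose treated values were lower at D5 and at D6, none of the 3 differences of effects passed.

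The genes most like each member were sought among 12000 genes by Pearson's r of log2(FPKM + 1) over the 21 libraries, a description in which all points share the course of differentiation. Nrxn2 was most like Ttbk1 (0.993) and Ndrg4 (0.992), and Nlgn2 most like Slc25a1 (0.991) and Sema6c (0.990). For Nrxn3 these genes were Spns2 (0.974) and Nrg1 (0.973), for Nlgn1 Fxyd7 (0.985) and Htr1a (0.983), and for Nlgn3 Tmem255a (0.979) and Lingo1 (0.977). Among the cerebellins they were Scml4 (0.978) and Uts2b (0.973) for Cbln1, Nwd2 (0.972) and Shisa6 (0.971) for Cbln2, and Stx12 (0.946) and Tes (0.944) for Cbln4.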

How the data were processed

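The deposited table of raw counts and the deposited table of FPKM hold 55400 genes in 21 polyA RNA-seq libraries. Per the labels and the study's methods, the authors aligned reads to mm10 with HISAT2, sorted them with SAMtools and made the counts with HTSeq; the counting strand and mode are not given in the sources used here. The authors' FPKM equalled FPKM recomputed from their counts to within 0.005. Symbols and positions came from GENCODE M21 (GRCm38), and 55140 identifiers had a symbol.

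The 8 genes, the pathway lists and the marker lists were chosen with earlier results of these data known. Counts were tested with edgeR 4.0.16 (R 4.3.3): TMM scaling, filterByExpr with a minimum count of 10, quasi-likelihood F test, Benjamini-Hochberg adjustment over all tested genes and a call at an adjusted p under 0.05. The SE of a log2 fold change was taken from its F value. The untreated steps were fitted over 12 libraries, each GSKJ4 comparison over its 6, the treated steps over 9 and the differences of effects over 18. Other settings were DESeq2 1.42.0 in place of edgeR, RLE or upper-quartile factors in place of TMM, all genes or those with 10 or more counts throughout, the replicate number as a block, 1 joint fit and the omission of each library. The block and DESeq2 counts of the pathway lists were added after the data had been seen.

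All 8 genes were named by rule. From each list, up to 3 genes with the largest change among those called were named, and for each gene the 2 most alike by Pearson's r. Some genes that this rule names are not reported here. Replicate numbers came from the labels, which call the replicates biological. Deviations of same-numbered libraries correlated by over 0.1 in every pair for D6 and D6+GSKJ4, D4 and D4H8, D4H8 and D5, D5 and D6, and D5+GSKJ4 and D6+GSKJ4, but not for D4H8 or D5 with their treated groups. No pair of libraries in a group agreed within sampling noise (mean chi-square per gene 6.44 to 104). Promoters came from RefSeq (GRCm38.p6).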

Additional observations from a re-analysis of the deposited data

How the results depend on the processing

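Of the comparisons of single members under settings other than leaving out a library, 434 kept direction and side of the threshold, 17 gained a call, 4 lost one and 1 turned in direction (Nrxn2, D4H8+GSKJ4 against D4H8, -0.12 with the replicate block). Leaving out 1 library kept 610, gained 8, lost 31 and turned 23. The members called higher at D4H8 than at D4 numbered 3 by DESeq2, 4 with no filter and 0 with at least 10 counts in every library, and 0 to 2 when 1 library was left out. With at least 10 counts in every library, which leaves few members to test, the numbers were 2 for D5 against D4H8, 2 for D6 against D5, 2 for D6 against D4 and 3 for D6+GSKJ4 against D5+GSKJ4, which ran from 1 to 5 when 1 library was left out. For D5+GSKJ4 against D5, DESeq2 and the fit with no filter each called 1, and for D6+GSKJ4 against D6 the replicate block called 3. Except where the filter itself removes members, the cause was not tested.

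Directions turned in uncalled differences alone. Without 1 library, log2 differences ran from -0.01 to 0.42 (Nlgn1) and -0.44 to 0.08 (Nlgn3) for D4H8 against D4, and from -0.33 to 0.18 (Cbln4) for D6 against D5. For GSKJ4 they ran from -0.51 to 0.36 (Nrxn2) and -0.46 to 0.19 (Nlgn2) at D4H8, from -0.08 to 0.12 (Nrxn2) at D5, and at D6 from -0.28 to 0.09 (Nrxn2), -0.35 to 0.12 (Nlgn2), -0.21 to 0.26 (Nlgn3) and -0.34 to 0.07 (Cbln4). Between treated stages they ran from -1.33 to 2.05 (Nlgn1), -0.34 to 1.39 (Nlgn3) and -0.96 to 0.05 (Cbln2) for D5+GSKJ4 against D4H8+GSKJ4, and from -0.37 to 0.10 (Cbln1) for D6+GSKJ4 against D5+GSKJ4.

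Over all genes, GSKJ4 calls at D4H8 numbered 644, against 1957 by DESeq2, 2287 with no filter, 2048 in 1 fit over all libraries and 2274 with the replicate block. At D5 they numbered 1, against 65, 128, 9 and 4, and at D6 0, against 1, 0, 0 and 257. Neither the labels nor the study's methods state a pairing of treated and untreated samples. Deviations of same-numbered libraries correlated by over 0.1 in every pair at D6. They did not at D4H8 (correlations 0.491, 0.09 and 0.301) or D5 (0.312, 0.085 and 0.309), where the block called no member. This cut does not show that samples were paired at D6 or unpaired at the other stages. Beside the D6 calls and Cbln1 from D5 to D6, the block changed no call of a member. Nlgn1, Nlgn3 and early Cbln4 rested on few counts, which limits their precision.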
